A study of Mus musculus with 6 samples.

Results

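The regions described here are the open chromatin sites linked to 9 genes that set the activity of the pyruvate dehydrogenase complex in mouse liver: the kinase genes Pdk1, Pdk2, Pdk3 and Pdk4, the phosphatase genes Pdp1 and Pdp2, and the subunit genes Pdha1, Pdhb and Dlat. Chromatin accessibility was measured with ATAC-seq, an assay that marks open DNA by letting the enzyme Tn5 insert sequencing adapters into it. The nuclei were those of hepatocytes, sorted for the hepatocyte factor HNF4a, from male mice that carried floxed alleles written Ncor1/2 F/F in the labels. The dKO group (3 libraries) had received an adeno-associated virus (AAV) with Cre recombinase, and the control group (3 libraries) an AAV with eGFP. Every mouse of both groups thus carried the floxed alleles and an AAV, and livers were taken at zeitgeber time 10 on day 5 after the virus. The labels used here state neither the promoter that drives Cre, nor the age of the mice, nor whether each library came from 1 animal. All p-values therefore rest on the spread among 3 libraries a group, part of which may be technical. Per the series' text, the comparison asks how accessibility in hepatocytes differs when NCOR1 and a related corepressor are lost.

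Peaks of the 6 deposited lists that shared at least 1 bp were merged into regions. A region was taken if its midpoint lay nearest to a span of these genes, within 50 kb, and if any library had a peak in it. This gave 60 of 109853 regions, and 25 of the 60 had a peak in all 6 libraries, as had 51749 regions overall. The regions were thus chosen by the presence of a peak in any library, whichever its group, and that presence is a description with no test. The farthest region inside the limit was 43397 bp from Pdp1, and the nearest site beyond it was 50386 bp from Pdp2 and belonged to another gene, Car7. The value of a region in a library is the authors' normalized tag count of its highest peak, that is, sequenced fragment ends scaled to library depth. All peaks of a list but at most 1 had the same width, so these levels can be set side by side between regions of a library.

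The pyruvate dehydrogenase complex of mitochondria turns pyruvate into acetyl-CoA, the step that commits carbon from glucose to oxidation or fat synthesis. Pyruvate dehydrogenase kinases phosphorylate its alpha subunit and switch the complex off, and pyruvate dehydrogenase phosphatases remove these phosphates and switch it on. In liver PDK4 is known to rise with fasting under glucocorticoids, PPAR alpha and FOXO1, which spares pyruvate for glucose synthesis, and to fall under insulin. NCOR1 is a corepressor that nuclear receptors recruit, together with histone deacetylase, to genes they hold silent.

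The promoters of Pdp2 and Pdhb, which have a called region near the start, of Pdk4, and of Pdk2, whose start region was not called but had groups that do not overlap, are shown first, since the peaks described below lie on or beside them. Each line gives the 250 bases before the RefSeq start (GRCm38.p6, the build of mm10) on the strand of the gene, with matches to the searched motifs in capitals.
Pdk4 (chr6:5496279-5496528, minus strand): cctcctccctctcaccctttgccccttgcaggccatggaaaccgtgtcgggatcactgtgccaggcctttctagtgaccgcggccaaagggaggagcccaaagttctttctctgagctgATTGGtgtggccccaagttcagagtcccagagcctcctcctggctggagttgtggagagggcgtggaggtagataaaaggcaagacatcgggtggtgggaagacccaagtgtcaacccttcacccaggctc
Pdk2 (chr11:95041372-95041621, minus strand): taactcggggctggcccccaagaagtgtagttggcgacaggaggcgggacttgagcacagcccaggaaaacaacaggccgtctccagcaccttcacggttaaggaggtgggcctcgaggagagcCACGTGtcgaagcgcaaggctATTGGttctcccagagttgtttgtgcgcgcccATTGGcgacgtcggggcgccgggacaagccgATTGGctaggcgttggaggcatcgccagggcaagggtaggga
Pdp2 (chr8:104591222-104591471, plus strand): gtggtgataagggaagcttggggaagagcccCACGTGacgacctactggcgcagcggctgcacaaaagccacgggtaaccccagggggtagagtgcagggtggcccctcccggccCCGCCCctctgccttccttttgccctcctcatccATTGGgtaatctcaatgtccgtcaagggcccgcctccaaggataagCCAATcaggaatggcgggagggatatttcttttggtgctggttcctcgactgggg
Pdhb (chr14:8172993-8173242, minus strand): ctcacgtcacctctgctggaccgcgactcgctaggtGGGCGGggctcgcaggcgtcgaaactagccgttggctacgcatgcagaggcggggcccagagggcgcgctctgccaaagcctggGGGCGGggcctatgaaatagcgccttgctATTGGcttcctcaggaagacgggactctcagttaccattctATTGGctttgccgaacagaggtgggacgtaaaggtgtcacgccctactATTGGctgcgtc
The search covered both strands for the nuclear receptor hexamer AGGTCA, 2 such hexamers in direct repeat with 1 base between them, the glucocorticoid receptor hexamer TGTTCT, the forkhead core GTAAACA, the CCAAT box CCAAT, the TATA box TATAAA, the GC box GGGCGG and the E box CACGTG. The direct repeat contains the hexamer, and no other motif of the list contains another. Pdk4 held a single match, a CCAAT box on the opposite strand from -131 to -127. Pdk2 held 3 CCAAT boxes and an E box, Pdp2 2 CCAAT boxes, a GC box and an E box, and Pdhb 3 CCAAT boxes and 2 GC boxes. A CCAAT box occurs in 33.8% of the 32851 promoter windows of the RefSeq table, a GC box in 32.7% and an E box in 6.02%. The nuclear receptor hexamer occurs in 14% of them, the glucocorticoid receptor hexamer in 16.1%, the forkhead core in 3.17%, the TATA box in 12.4% and the direct repeat in 0.0335%. None of these 5 was in the first listed window of any of the 8 genes with a promoter entry, which says only that these letters are not in those 250 bases. Before the second listed start of Pdk1, which is not printed, there are 2 glucocorticoid receptor hexamers, from -153 to -148 and from -138 to -133. Pdp1 is without an entry.

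The dKO lists held 84614, 81667 and 71473 peaks and the control lists 83371, 72417 and 68316. Peak width was 108 bp in dKO 1, dKO 2 and control 1 (narrow peaks) and 166 or 172 bp (wide peaks) in dKO 3, control 2 and control 3. The 2 width classes are thus split unevenly between the groups, and how far width bears on the tag counts was not tested. Fold changes are also given within these width classes, a trait of the lists that the labels used here do not explain. If the smallest step between values is 1 tag, the lowest called values stand for 56 to 59 tags, and depth differed by up to 1.27 times between libraries. Of 10 hepatocyte marker genes, 5 had a peak within 1 kb of a gene end in all libraries. The level summed over all 10 was 270.9 to 475.3 in dKO and 341.5 to 582.4 in control libraries. None of 6 macrophage and none of 6 lymphocyte markers had such a peak in any library. Of 6 endothelial, 6 stellate and 5 cholangiocyte markers, 0, 3 and 2 had one in all libraries. Levels summed over each whole list were 0 to 12.28, 25.84 to 45.2 and 19.91 to 29 in dKO against 3.59 to 9.63, 32.14 to 48.7 and 13.15 to 20 in control. Pecam1, Stab2, Clec4g, Des, Pdgfrb, Dcn, Krt19, Krt7 and Cftr of these lists had no such peak in any library, and absence from a peak list counts as 0 in the sums. At Ncor1, 1 of 6 regions with a peak in all libraries was higher in dKO and none lower, and because the floxed exons are not given, these regions do not check the deletion.

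Of the 9 genes, Pdk4 had the most sites and the only region called higher in dKO. Of the 25 regions with a peak in all libraries, 1 was higher in dKO, 3 were lower and 21 were not called (limma with Benjamini-Hochberg adjustment over all 51749 regions, threshold 0.05). Over all such regions 8.19% were called higher and 11.6% lower, 19.8% in either direction, so these counts are near the background. The median log2 fold change was -0.20 over the 25 and -0.02 over all regions, and 18 of the 25 were below 0, against 52.5% of all regions. The count of lower regions was 1 without dKO 2 and 6 without dKO 3, and with each library left out in turn 1 region was higher. Over all regions the counts were 4240 higher and 5995 lower, and 1633 and 2061 without dKO 1 or 1257 and 1402 without dKO 2.

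Some regions had a peak in every library of 1 group and in none of the other, and 6 of these 9 regions lay at Pdk4. Of the 60 regions, 3 were found in every dKO library and in none of the controls (the dKO-only kind). Another 6 were found in every control library and in none of the dKO (the control-only kind). With peaks up to 300 bp apart merged, a choice made after the data were seen, these counts were 3 and 5. Over all merged regions these patterns made up 1.57% and 1.34%, and the difference was not tested. No listed peak had under 4 times the tags of its local surroundings, so a site without a peak is not shown to be closed. No fold change is given where a group has no peak.

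**Figure D1:**
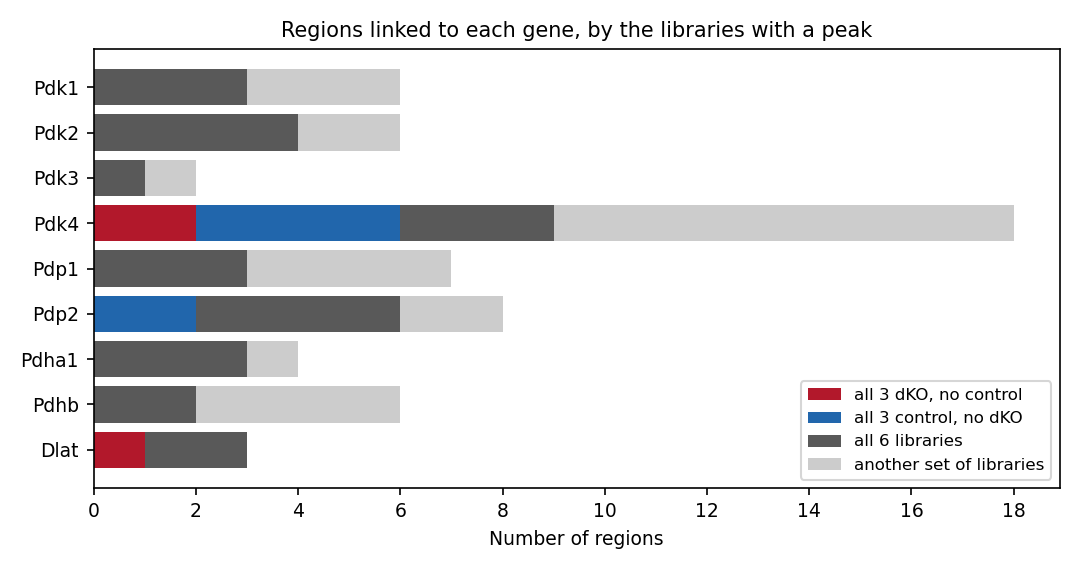
Number of regions linked to each of the 9 genes, coloured by the libraries with a peak: all 3 dKO and no control, all 3 control and no dKO, all 6, or another set. Pdk4 has 18 regions, of which 2 were found in dKO only and 4 in control only, and Pdp2 and Dlat hold the other 3 regions of 1 group.

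Pdk4 encodes the kinase that fasting induces in liver, and its locus differed between groups at the promoter, beyond the end of the gene and upstream. It spans chromosome 6, 5483351 to 5496278 (mm10), on the minus strand. It had 18 regions, the most of the 9 genes, with 11, 12 and 8 called in the dKO libraries and 10, 9 and 8 in the control libraries. Its next gene, Asb4, was at least 37558 bp from each of them. Among 16644 genes with a linked region, 197 had at least 2 regions of the dKO-only kind and 3 had at least 4 of the control-only kind, and 158 had at least 1 of each kind. These limits are Pdk4's own counts, so they describe it and rank nothing. They also rest on how peaks were merged. The control-only promoter region at 5496302 to 5496544 lies 28 bp from a region with peaks in all dKO libraries. With peaks up to 300 bp apart merged, that site had a peak in every library. The counts over all genes were not made with that merge.

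The strongest Pdk4 peaks of the dKO libraries lay past the end of the gene. The region at 5482504 to 5482681, 759 bp beyond the gene's end, had 77.5, 83.1 and 71.6 normalized tags in dKO 1, 2 and 3 and no peak in any control library. In the dKO lists only 0.24%, 0.141% and 1.68% of all peaks were higher. The authors' fold over the local surroundings was 4.54, 5.84 and 4.93 for these peaks, close to the lowest fold of 4 in each list. All dKO libraries, dKO 3 included, carried the peak at a like height.

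Around it, the control libraries had peaks that the dKO lists did not hold. The region at 5479971 to 5480157, a further 2347 bp downstream, had no peak in dKO libraries and 20.4, 25.1 and 22.2 tags in control 1, 2 and 3. Inside the gene, the region at 5485151 to 5485344 had no dKO peak and 14.6, 12.6 and 7.51 tags in control libraries. That at 5486633 to 5486858 had no dKO peak and 5.69, 7.42 and 6 tags in control libraries. None of the 3 sites is near a start of the gene, and the first had an authors' fold over its surroundings of 29.34 to 49.06 in the control lists. The dKO peak beside them, at 71.6 to 83.1 tags, had a fold of only 4.54 to 5.84, and no list held a fold under 4. Whether dKO peaks of the control heights could have been listed here was not tested. Nor was it tested whether the tall dKO peak bears on their absence.

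At the Pdk4 promoter the highest peak lay on opposite sides of the start in the groups. The region at 5495983 to 5496274, centred 150 bp after the start, had 67.1, 53.2 and 60.1 tags in dKO 1, 2 and 3, against 18.3 tags in control 1 and no peak in control 2 or 3. The region at 5496302 to 5496544, centred at -145 bp and largely within the promoter printed above, had no dKO peak and 50.9, 39.4 and 37.8 tags in control libraries. Another region centred at -345 bp had 38 tags in dKO 2 and no peak elsewhere. The 3 regions are 28 and 25 bp apart, so they were also taken as 1 site, a choice made after the data were seen.

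With peaks up to 300 bp apart merged, the Pdk4 promoter had higher tag counts in dKO. Its highest peak had 67.1, 53.2 and 60.1 tags in dKO and 50.9, 39.4 and 37.8 in control libraries. Every dKO value thus lay above every control value, as in 12.6% of shared regions before this merge. Mean ± SD were 60.1 ± 6.9 over the 3 dKO and 42.7 ± 7.1 over the 3 control libraries. The log2 fold change was 0.55 (SE 0.13, limma adjusted p = 0.0114). With this merge no fit left out single libraries or was made within the width classes, so whether the call would hold there was not tested. The authors' fold over the local surroundings was 6.29, 6.73 and 6.7 for these peaks in dKO and 16.58, 10.36 and 11.98 in control libraries, so it was lower in dKO while the tag count was higher. The groups also differ in which side of the start held the peak.

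**Figure D2:**
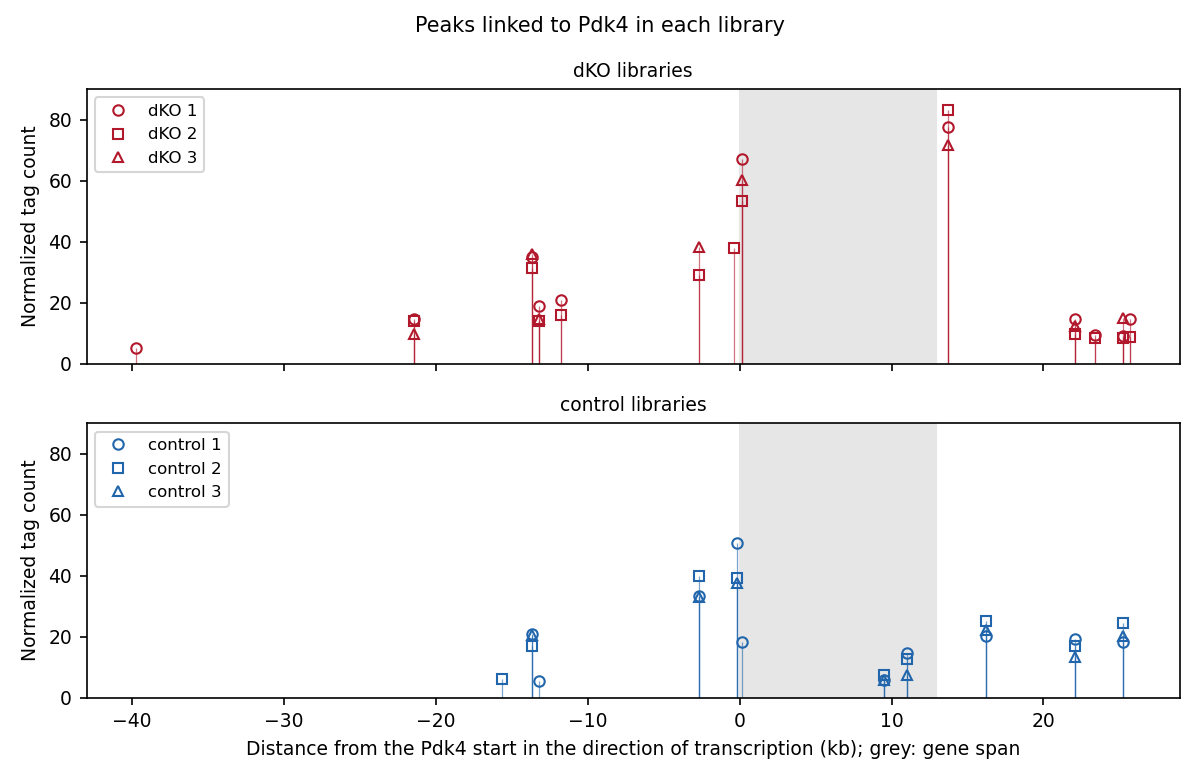
Normalized tag count of each peak linked to Pdk4 against the distance of its region from the Pdk4 start (kb, in the direction of transcription), in the 3 dKO libraries (upper panel) and the 3 control libraries (lower panel), with the gene span in grey. Peaks of 71.6 to 83.1 tags just past the gene's end appear in dKO only, and the peaks near the start reach 53.2 to 67.1 tags in dKO and 37.8 to 50.9 in control.

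Upstream of Pdk4, a site about as far from the start as the gene is long had higher tag counts in dKO. The region at 5509809 to 5510047, centred at -13650 bp, had 34.8, 31.2 and 35.8 tags in dKO 1, 2 and 3, against 21, 17.1 and 20.5 in control libraries. All dKO values lay above all control values, as in 12.6% of all shared regions. Mean ± SD were 33.9 ± 2.4 over the 3 dKO and 19.5 ± 2.1 over the 3 control libraries, and the log2 fold change was 0.83 (SE 0.13, limma adjusted p = 0.00163). It was 0.76 within the lists of narrow peaks and 0.80 within those of wide peaks, and it was called without each library in turn, at an adjusted p of at most 0.0229. The authors' fold over the local surroundings ran the other way, at 8.89, 10.65 and 10.7 in dKO and 30.9, 17.31 and 22.96 in control libraries, and the part of the surroundings in the higher tag counts was not tested.

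The sites next to it had peaks mainly in dKO libraries. The region at 5509349 to 5509566, 243 bp from the last, had 18.7, 14 and 14.7 tags in dKO libraries, against 5.59 in control 1 and no peak in control 2 or 3. The authors' fold over the local surroundings was 4.62, 4.52 and 4.01 in dKO, near the lowest fold of 4, and 6.63 in control 1. The region at 5507958 to 5508102 had 20.8 and 16 tags in dKO 1 and dKO 2, at folds of 5.23 and 5.25, and no peak in dKO 3 or any control library. Farther out, centred at -21414 bp, the region at 5517606 to 5517778 had 14.6, 14 and 9.6 tags in dKO libraries and no peak in control. Its folds were 15.42, 19.86 and 12.04. Between these sites and the start, by contrast, the region centred at -2687 bp had 29 and 38.2 tags in dKO 2 and dKO 3, no peak in dKO 1, and 33.5, 39.8 and 33.2 in control libraries. The folds at -2687 bp were 4.46 and 5.09 in dKO 2 and dKO 3 and 10.33, 10.65 and 10.33 in control libraries. With dKO 1 left out of the fit, the log2 fold change of the region at -2687 bp was -0.02 (95% interval -0.31 to 0.27, limma adjusted p = 0.947).

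Downstream of Pdk4 a distal site had lower tag counts in dKO. The region at 5470889 to 5471196, 12309 bp past the gene's end, had 9.09, 8.47 and 14.8 tags in dKO 1, 2 and 3, against 18.4, 24.5 and 20.2 in control libraries. No dKO value reached the lowest control value, as in 15.8% of all shared regions, and dKO 3 was nearest to it. Mean ± SD were 10.8 ± 3.5 over the 3 dKO and 21.0 ± 3.1 over the 3 control libraries, and the log2 fold change was -0.87 (SE 0.17, limma adjusted p = 0.00496). It was -0.86 within the lists of narrow peaks and -0.65 within those of wide peaks. The region was called without each library in turn (adjusted p up to 0.0411). The authors' fold over the local surroundings was 5.7, 6.88 and 8.4 in dKO and 16.65, 15.41 and 16.19 in control libraries. Its neighbour at 5474117 to 5474313 had 14.5, 9.72 and 12.4 tags in dKO and 19.3, 16.9 and 13.3 in control libraries. These groups overlap, and the region was not called (log2 fold change -0.35, 95% interval -0.72 to 0.03, adjusted p = 0.176). On this side 2 further regions, at 5470498 and 5472850, had peaks of 14.5 and 8.57 and of 9.38 and 8.42 tags in dKO 1 and dKO 2 only. These libraries share the narrow peak width, and so does control 1, which had no peak there. The region at 5470498 lies 227 bp from the called lower region. With peaks up to 300 bp apart merged, the 2 formed 1 site with 14.5, 8.57 and 14.8 tags in dKO libraries. Control values stayed as above, and the log2 fold change was smaller, at -0.66 (SE 0.17, limma adjusted p = 0.0166).

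The other kinase genes had no called region. Pdk2 encodes the kinase found most widely across tissues. It had 6 regions, 4 of them with a peak in all libraries, and all 4 had log2 fold changes below 0 with limma adjusted p from 0.0525 to 0.271. The region over its start, at chromosome 11, 95041281 to 95041526, had 25.8, 24.9 and 32.4 tags in dKO 1, 2 and 3, against 39.7, 33.9 and 36.9 in control libraries. Every dKO value lay below every control value, as in 15.8% of all shared regions, but the log2 fold change of -0.34 missed the threshold (95% interval -0.59 to -0.09, adjusted p = 0.0525). A second site, centred 195 bp after the second listed start, had 26.9, 23 and 34.5 tags in dKO and 39.9, 33.9 and 28.9 in control libraries. Its groups overlap (log2 fold change -0.22, 95% interval -0.51 to 0.07, limma adjusted p = 0.271).

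Pdk2 also had a site on the upstream side that most control lists did not hold. The region at 95042253 to 95042434, centred at -972 bp, had 27.2, 22.4 and 27.5 tags in dKO libraries, against 22.2 in control 1 and no peak in control 2 or 3. The authors' fold over the local surroundings was 6.75, 6.04 and 4.4 in dKO 1, 2 and 3 and 4.2 in control 1. The last 2 are near the lowest fold of 4, so the missing control peaks do not show a closed site. Within the gene the region at 95038737 to 95038945 had 22.4, 21.5 and 31 tags in dKO and 36.5, 30.5 and 33.2 in control libraries. Its groups overlap by the dKO 3 value (log2 fold change -0.36, limma adjusted p = 0.0602). The region at 95032954 to 95033146 varied most, with 4.78, 6.38 and 10 tags in dKO and 20.4, 6.75 and 10.8 in control libraries. Control 1 alone was high there, and the log2 fold change of -0.63 had a wide interval (-1.27 to 0.02, adjusted p = 0.155).

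Pdk1, a kinase gene known as a target of the hypoxia factor HIF-1, had the kinase start region with the highest mean in both groups. The region at chromosome 2, 71873103 to 71873322, centred at -12 bp, had 64.2, 62.7 and 94.2 tags in dKO 1, 2 and 3, against 86.6, 81.1 and 80.2 in control libraries. dKO 3 lay above all controls and the other dKO libraries below them (log2 fold change -0.13, 95% interval -0.38 to 0.13, limma adjusted p = 0.473). The region centred 736 bp after the start had 22, 21.4 and 26.3 tags in dKO and 35.2, 31.6 and 24.5 in control libraries, with overlapping groups (log2 fold change -0.30, adjusted p = 0.147). The remaining 4 Pdk1 regions had values between 3.5 and 12.3 tags in the libraries that called them, and their log2 fold changes, where at least 2 libraries of each group had a peak, were -0.12 to 0.22 with no call.

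Pdk3, a kinase gene with a narrow range of tissues, had the weakest start region. At chromosome X, 93832001 to 93832199, centred 50 bp after the start, it had 12.5, 14.7 and 19.3 tags in dKO libraries, against 10.3, 15.9 and 13.6 in control libraries. The groups overlap (log2 fold change 0.27, 95% interval -0.12 to 0.66, limma adjusted p = 0.315). A weak site inside the gene had 4.15 and 3.54 tags in control 1 and control 2 and no peak elsewhere.

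Of the phosphatase genes, Pdp2 had 1 region that fell and Pdp1 had none called. PDP2 is the phosphatase known to respond to insulin and not to calcium, and PDP1 the one that calcium stimulates. The Pdp2 region at chromosome 8, 104591970 to 104592170, centred 598 bp after the start, had 28.3, 24.2 and 36.9 tags in dKO 1, 2 and 3, against 43.8, 40.3 and 47.5 in control libraries. All dKO values lay below all control values, as in 15.8% of all shared regions, with dKO 3 the highest of the dKO group. Mean ± SD were 29.8 ± 6.5 over the 3 dKO and 43.9 ± 3.6 over the 3 control libraries, and the log2 fold change was -0.50 (SE 0.12, limma adjusted p = 0.0110). The fold change was -0.59 within the lists of narrow peaks and -0.34 within those of wide peaks. The call was lost without dKO 1 (adjusted p = 0.0566) and without dKO 2 (0.0821).

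The region over part of the printed Pdp2 promoter did not follow it. At 104591138 to 104591320, 243 bp before the start, it had 26.3, 25.6 and 27.5 tags in dKO libraries, against 41.5, 25 and 21.7 in control libraries. The dKO values sit close together between the controls, of which control 1 was high (log2 fold change -0.03, 95% interval -0.44 to 0.38, limma adjusted p = 0.926). Another site near the start, centred 247 bp after it, had 20.4 tags in dKO 2 and 30.7 in control 1 and no peak in the other libraries. At the far end of the gene, the region at 104598592 to 104598786 had no dKO peak and 18.9, 23.9 and 17.3 tags in control libraries. The authors' fold over the surroundings was 5.42, 5.25 and 4.49 there, near the lowest fold of the lists. A weaker region at 104584569 to 104584758, upstream of the gene, likewise had no dKO peak and 4.95, 3.59 and 4.21 tags in control libraries. The other Pdp2 regions with a peak in all libraries had log2 fold changes of 0.19 and -0.04 and were not called.

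At Pdp1 the region over a gene end, at chromosome 4, 11966332 to 11966604, had 22.3, 24.9 and 34 tags in dKO libraries, against 38.7, 32.3 and 31 in control libraries. dKO 3 fell among the controls and the groups overlap (log2 fold change -0.27, 95% interval -0.58 to 0.03, limma adjusted p = 0.188). Next to it, 116 bp away, the region at 11966720 had 21.4 and 19.9 tags in dKO 1 and dKO 2 and no peak in the other libraries. Inside that end, the region at 11965711 had 11.2, 10.6 and 14.9 tags in dKO libraries, against 11.2 and 12.2 in control 1 and control 3 and no peak in control 2. A distal site 28597 bp from the gene had 12.8, 8.78 and 12.2 tags in dKO and 8.68, 7.18 and 9.31 in control libraries. Its groups overlap by a small margin (log2 fold change 0.44, 95% interval 0.08 to 0.79, adjusted p = 0.0766), and another site 43397 bp away had a log2 fold change of 0.12.

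**Figure D3:**
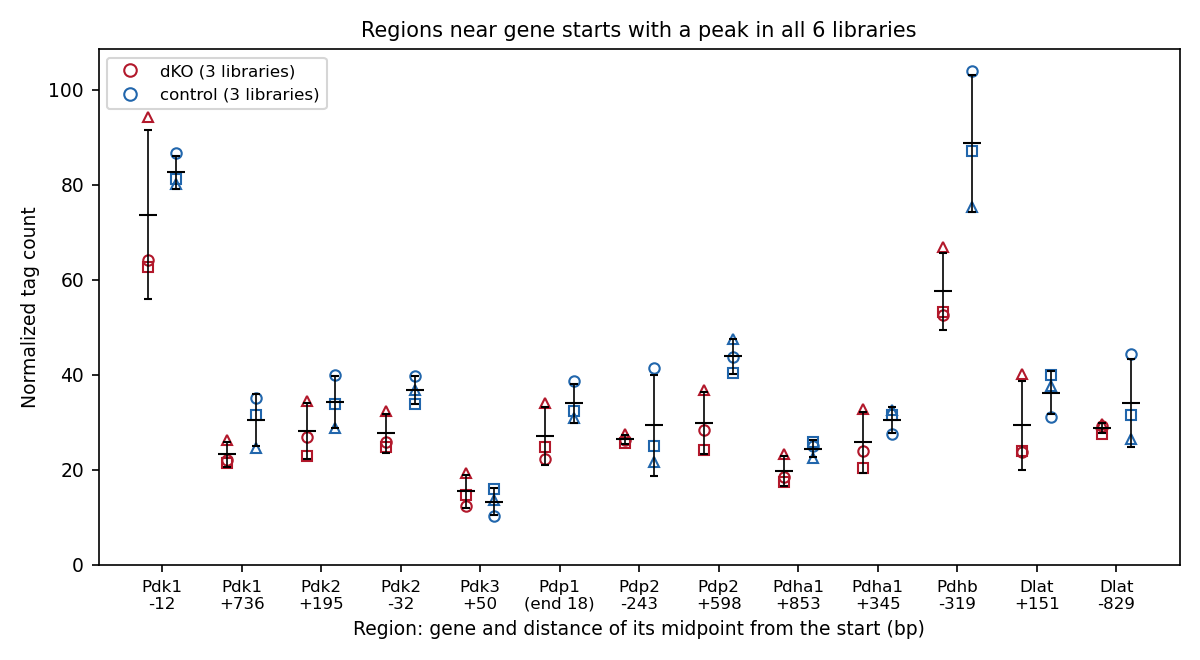
Normalized tag counts of the regions near gene starts that had a peak in all 6 libraries, with dKO left of control at each region, circles, squares and triangles for libraries 1, 2 and 3, and black bars for the mean and SD (n = 3 each). The groups do not overlap at Pdk2 -32, Pdp2 598 and Pdhb -319, where every dKO value is the lower. Every dKO value was also the lower in 1628 of the 11323 shared regions of all genes within 1 kb of a gene end. Pdk1 -12 has the largest spread between dKO libraries.

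Of the subunit genes, Pdhb had a start region that fell, and Pdha1 and Dlat had no called region. Pdhb encodes the beta subunit of the pyruvate dehydrogenase enzyme. Its region at chromosome 14, 8173225 to 8173397, had 52.5, 53.2 and 66.9 tags in dKO 1, 2 and 3, against 103.8, 87 and 75.2 in control libraries. All dKO values lay below all control values, as in 15.8% of all shared regions. In every list at most 2.21% of peaks were higher, so it was among the strongest sites of each library. Mean ± SD were 57.5 ± 8.1 over the 3 dKO and 88.7 ± 14.4 over the 3 control libraries, and the log2 fold change was -0.55 (SE 0.13, limma adjusted p = 0.0104). It was -0.83 within the lists of narrow peaks and -0.37 within those of wide peaks, and without dKO 2 the call was lost (adjusted p = 0.0530). The region is centred at -319 bp from the start that the RefSeq table lists and 8 bp outside the gene's span, so it covers only the far end of the printed promoter.

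The other Pdhb sites were weak or incompletely called. The region at 8176417 had 28.3 and 25.6 tags in dKO 1 and dKO 2, against 29.3 in control 1, and no peak in the libraries with wide peaks. A distal region at 8183454 to 8183681 had 4.37, 5.49 and 6.62 tags in dKO and 4.74, 5.31 and 6.11 in control libraries, with a log2 fold change of 0.08 (limma adjusted p = 0.772). The last 3 had at most 4.76 tags.

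Pdha1 is the X-linked gene of the alpha subunit, which carries the serines that the kinases phosphorylate. The region at chromosome X, 160137944 to 160138227, centred 345 bp after the start, had 24, 20.4 and 32.9 tags in dKO libraries, against 27.5, 31.5 and 32.6 in control libraries. dKO 3 was above all controls and the groups overlap (log2 fold change -0.20, 95% interval -0.48 to 0.08, limma adjusted p = 0.295). The region centred 853 bp after the start had 18.4, 17.4 and 23.4 tags in dKO and 25, 25.8 and 22.4 in control libraries (log2 fold change -0.24, adjusted p = 0.201). Over the start itself, the region centred at -81 bp had 16.6 tags in dKO 1 and 23.3 in control 1 and no peak in the other libraries. A weak site 31876 bp from the gene had 3.59 to 4.8 tags in the 6 libraries.

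Dlat encodes the dihydrolipoamide acetyltransferase that forms the core of the complex and to which the kinases bind. The region at chromosome 9, 50659500 to 50659759, centred 151 bp after the start, had 23.8, 24 and 40.2 tags in dKO libraries, against 31.2, 39.9 and 37.6 in control libraries. dKO 3 was again above all controls while dKO 1 and dKO 2 were below them (log2 fold change -0.27, 95% interval -0.59 to 0.05, limma adjusted p = 0.222). The region centred at -829 bp had 29.2, 27.6 and 29.6 tags in dKO and 44.4, 31.5 and 26.4 in control libraries, with a log2 fold change of -0.14 (adjusted p = 0.570). Past the other end of the gene, a weak site at 50633138 to 50633310 had 5.01, 4.18 and 4.01 tags in dKO libraries and no control peak.

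**Figure D4:**
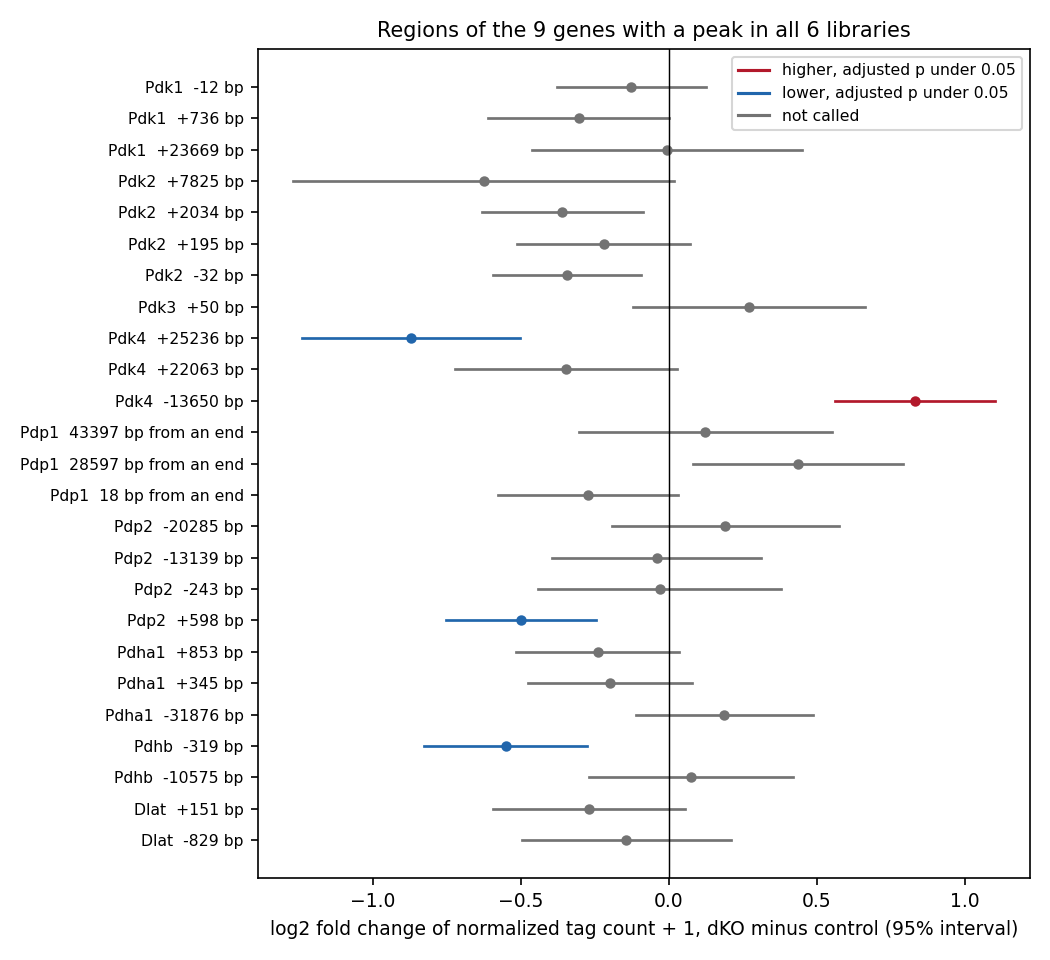
Log2 fold change (dKO minus control) with its 95% interval for each of the 25 regions with a peak in all 6 libraries, named by gene and distance of the region from the start or, for Pdp1, from the nearest gene end. The Pdk4 region at -13650 bp is higher, at 0.83, the regions Pdk4 25236, Pdp2 598 and Pdhb -319 are lower, and the other 21 are not called.

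Read by place, the 13 regions with a peak in all libraries that lay within 1 kb of a start, or of a gene end for Pdp1, had a median log2 fold change of -0.24, and 12 of the 13 were below 0. Of these, 2 were called lower and none higher by limma. Over the 11323 shared regions of all genes within 1 kb of a gene end, the median was -0.11, 7525 were below 0, 10.5% were called lower and 2.74% higher. The 12 regions farther away had a median of 0.03, with 1 called higher and 1 lower. None of the 13 was a Pdk4 region, because no single Pdk4 start region had a peak in all libraries. Of the 60 regions 9 had a peak in a single library, as had 18282 of all 109853 regions. The 9 were 3 at Pdk4, 2 each at Pdp1 and Pdhb, and 1 each at Pdk2 and Pdp2. They had 38 tags at Pdk4 in dKO 2, 24.9 at Pdp2 in dKO 1 and 4.02 to 6.03 elsewhere.

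Fold changes of the 25 regions were also set within the width classes. With width class as a term in the fit over all 6 libraries, limma called 1 of the 25 higher and 4 lower. The Pdk2 start region was the one added. In the lists of narrow peaks 18 of 25 were below 0 and in the lists of wide peaks 13 of 25, with 20 having the same sign in both, against 72.5% of all regions. When the fold changes of the 2 classes were compared with each other, limma called none of the 25, with 6 at an unadjusted p under 0.05. The same fit called 0 of all 51749 regions, with 5393 at an unadjusted p under 0.05, so it does not show that the classes act alike. Within the lists of wide peaks, which hold 1 dKO library, limma called none, with 4 at an unadjusted p under 0.05.

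Other genes of pyruvate handling had sites that moved both ways. Of 28 genes listed, 27 had a region with a peak in all libraries, 110 in all, and limma called 15 of these higher, 19 lower and 76 neither, with a median log2 fold change of -0.07 against -0.02 over all regions. Over all regions 8.19% were called higher and 11.6% lower. Regions rose at Me1, the malic enzyme gene (1.56), Slc16a1, a monocarboxylate transporter gene (0.83), Lias, the lipoic acid synthase gene (0.66), and Bckdhb, a branched-chain ketoacid dehydrogenase gene (0.49). At Me1 3 of 8 regions were called higher and 1 lower, and at Bckdhb 1 of 6 was called each way. At Slc16a1, 6 of 11 regions rose and none fell. Regions fell at Acly, the ATP citrate lyase gene (-1.35), Pklr, the liver pyruvate kinase gene (-0.65), Mpc1, a mitochondrial pyruvate carrier gene (-0.47), Pcx, the pyruvate carboxylase gene (-0.68), and Pdhx, which encodes another subunit of the complex (-0.72). Lipt1 (-0.59), Slc16a7 (-0.98) and Ppm1k (-0.84), a phosphatase gene of the branched-chain complex, had regions that fell as well. The 12 regions named here had limma adjusted p up to 0.0141, and that of Mpc1 lay 10599 bp outside the gene span.

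Genes of regulators known to act on Pdk4 also held called sites in both directions. All 18 listed had regions with a peak in all libraries, 140 in all, and limma called 17 of these higher, 26 lower and 97 neither, with a median log2 fold change of -0.08, also against -0.02. The shares over all regions, 8.19% higher and 11.6% lower, apply here too. Regions rose at Irs2 (1.06) and Akt2 (1.20), genes of insulin signalling, at Ppara (0.71) and Ppard (0.75), the PPAR alpha and PPAR delta genes, and at Ppargc1b, a coactivator gene (adjusted p = 0.000995). Regions fell at Foxo3 (-1.24), a forkhead factor gene, at Hnf4a (-0.77), at Insr (-0.63), the insulin receptor gene, at Irs1 (-0.60) and at Nr3c1 (-0.60), the glucocorticoid receptor gene. Several of these genes had regions called both ways: Nr3c1 2 higher and 4 lower of 13, Ppara 1 higher and 2 lower of 7, Insr 2 higher and 1 lower of 9, Irs2 2 higher and 1 lower of 10, Ppargc1b 4 higher and 1 lower of 13, and Irs1 1 higher and 2 lower of 10. At Ppargc1a, the PGC-1 alpha gene, 9 of 15 regions fell and none rose. The regions named here had limma adjusted p up to 0.0198. Those of Ppara, Irs1 and Irs2 lay outside the gene span, at 49833, 44133 and 38360 bp from it.

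Among the 250 shared regions of these context genes, the profile over the 6 libraries nearest to that of the Pdk4 region at -13650 bp belonged to a region of Ppard. Likeness was measured as the Euclidean distance between log2 profiles, each centred on its own mean, which was 0.25 for Ppard, 0.30 for a region of Ppargc1b and 0.38 for a region of Nr3c1, against a median of 1.21 over the 250. The Ppard region had 24.5, 20.1 and 20.7 tags in dKO and 15.2, 11.1 and 13.3 in control libraries. That of Ppargc1b had 44.1, 36.4 and 39 in dKO and 23.5, 17.9 and 19.6 in control libraries. That of Nr3c1 had 12.8, 13 and 12.5 in dKO and 8.73, 8.18 and 7.46 in control libraries. These profiles were picked for their likeness, so their shared difference between groups is a description.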

How the data were processed

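ATAC-seq was made by the Omni-ATAC protocol from HNF4a-positive nuclei, per the labels' protocols. Trim Galore (0.6.4), SAMtools (1.10), Picard, HOMER (4.11) and the build mm10 appear in the submitters' processing notes. Neither the aligner and read filters nor a Tn5 offset or the peak settings are stated there. Per the file headers, the authors deposited 1 HOMER table per library, with replicates kept apart. Its columns hold the normalized tag count, which is a signal scaled to library depth, a fraction of tags placed as a peak requires, a score, p-values, and the fold of each peak over its local surroundings and a clonal fold, which are ratios made by the authors. The tag count was analysed; the score served only to filter peaks, and the fold over the surroundings only to describe peaks within a list. Larger tag counts are rounded, so whole reads could not be recovered and no count model was used.

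Regions that every library called were tested on the scale log2(value + 1), each library centred on its median, with limma 3.58.1 (R 4.3.3), a mean-variance trend and the group as its only term. P-values are 2-sided and adjusted over all 51749 regions, and SE and 95% intervals are moderated. Fold changes on this scale understate those of weak regions. An exact test of 3 against 3 libraries cannot go below 0.1. Gene spans and promoter sequences came from RefSeq tables of GRCm38.p6; exons, introns and UTRs were not used here, and distances are to the nearest listed start. Peaks on chromosomes other than 1 to 19 and X were left out. Full values are given for called regions, the strongest region of a gene, regions of the dKO-only and control-only kinds and those within 1 kb of a start. Context genes are the 12 of each list with the smallest p at a called region. The genes, lists, tests and alternatives were chosen with earlier results of these data known.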

Additional observations from a re-analysis of the deposited data

How the results depend on the processing

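Over the 21 alternatives, the 25 regions stayed on their side of the threshold in 490 of 511 comparisons. In 7 a call was lost, in 14 a call was gained, and no call changed sign. Regions with no call could change sign and still count among the 490. The higher Pdk4 region was called in 20 of 21 alternatives (log2 fold change 0.74 to 0.95) and the lower one in 19 of the 20 that could test it (-1.02 to -0.65; with peaks sharing at least 50 bp merged it had no peak in every library), the exceptions being the fit within the lists of wide peaks. Pdhb was called in 19 of 21 and Pdp2 in 18 of 21.

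Within the lists of wide peaks no region was called, 0 over all regions and 0 at the 9 genes, higher or lower, by limma, with 7516 and 4 at an unadjusted p under 0.05. This fit has 1 dKO library, which is assumed to vary like the other groups. Within the lists of narrow peaks, with 1 control library, 10 of the 25 regions of the 9 genes and 7479 of all 51749 were lower; the lone control library is likewise assumed to vary like the other groups. Without centring 2562 regions were higher. Without the lowest 25% of each list by score, 3884 were lower and 2 of the 9 genes' regions higher, a Pdp1 region being added. With peaks up to 300 bp apart merged, added after seeing the data, 2 were higher, the Pdk4 promoter being added. With links within 10 kb, 0 were higher, since the higher Pdk4 site is farther away. The cause was not tested for the other changes. Leaving out single libraries gave 1257 to 5174 higher and 1402 to 8123 lower regions over all, and 1 to 6 lower regions at the 9 genes.

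Same-numbered libraries did not deviate together in every pair (correlations 0.146, -0.032 and 0.234), so the numbers are not taken as pairs. With the replicate block, 5417 regions were higher and 7384 lower, and 1 and 3 at the 9 genes. The median log2 fold change of the 25 regions was -0.20 with median centring, -0.13 with quantile normalization, -0.12 with cyclic loess and -0.26 without centring. Peak lists hold no value where no peak was called, which limits every site of 1 group only.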
